A study of Homo sapiens with 2 samples.

Results

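The genes described here are the mixed-lineage leukaemia gene MLL (KMT2A), a set of its fusion partners (MLLT3, MLLT1, MLLT10, AFF1 and AFF4) and the cofactors MEN1, PSIP1, DOT1L and JMJD1C. They were taken by symbol from a table of gene expression, and all 10 were listed among its 10987 genes. RNA sequencing covered 2 libraries of the THP1 line, 1 untreated and 1 exposed to bortezomib (bort), an inhibitor of the proteasome, for 24 h. The line comes from a human monocytic leukaemia and is known to carry the MLL-AF9 (MF9) fusion of KMT2A and MLLT3, and the dose of bort for the sequenced culture is not given in the sources used here. As there were no replicates, no test was possible and every comparison is between these libraries. Values are FPKM, fragment numbers divided by transcript length and by library size, so levels of different genes can be set side by side within a library. The depth is unknown, so no counting error is given.

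MLL is a methyltransferase that places methyl groups on lysine 4 of histone H3 (H3K4) at active promoters. Its amino-terminal part binds CG-rich DNA and, through menin (MEN1) and LEDGF (PSIP1), stays on chromatin. In leukaemia a translocation joins this part to the carboxy-terminal part of a partner. AF9 (MLLT3), ENL (MLLT1), AF4 (AFF1) and AF5Q31 (AFF4) belong to complexes that release paused RNA polymerase II, and AF10 (MLLT10) works with DOT1L, the methyltransferase of lysine 79 of histone H3. JMJD1C is a member of the family of jumonji demethylases of H3K9. MLL fusions use several of these proteins to keep HOXA genes and MEIS1 active. A gene-level value adds the reads of the normal alleles and of any fusion transcript, so the values of KMT2A and MLLT3 say nothing on the fusion by itself.

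The labels were first set against marker genes. Of 20 monocytic and myeloid markers 9 were listed, 7 higher and 2 lower in the bort-treated library, beside 50.3% and 49.7% of all genes. Their summed levels were 26.8 FPKM in the untreated and 66.7 FPKM in the bort-treated library. LYZ was the most abundant of them in the bort-treated library, at 7.61 FPKM and 28.7 FPKM. CD68 was at 5.94 FPKM and 20.2 FPKM, and CD33 at 6.45 FPKM and 5.22 FPKM. CD14, CSF1R and MPO were not among the listed genes. Of 20 erythroid markers 18 were listed, 6 higher and 12 lower, with sums of 5164 FPKM and 4485 FPKM. HBG1 was the most abundant of them, at 1487 FPKM and 1536 FPKM, and KLF1 was at 147.1 FPKM and 17.4 FPKM. SLC4A1 and EPB42 were not listed, and HBB was low, at 1.63 FPKM and 0.456 FPKM. Of 10 lymphoid markers 3 were listed, at 11.0 FPKM and 14.0 FPKM. Among the genes that MLL fusions are known to keep active, HOXA9, HOXA10 and MEIS1 were also not listed. Such a profile is not that of a monocytic line such as THP1, which the labels name. Both libraries are therefore named here by their labels, and the part of the cell identity in the results below was not tested.

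The largest difference was that of JMJD1C, with 3.39 FPKM in the untreated and 13.5 FPKM in the bort-treated library. AFF4 followed, at 2.18 FPKM and 7.31 FPKM. MLLT1 was the member with the largest difference in the other direction, at 34.0 FPKM in the untreated and 16.4 FPKM in the bort-treated library. DOT1L and MEN1 were also lower in the bort-treated library, while KMT2A itself was close to equal in both. On the log2(FPKM + 1) scale, where scarce genes appear to differ less than their FPKM ratio, 2 of the 10 members were higher by 2-fold or more in the bort-treated library, against 8.08% of all genes. On the same scale 1 of the 10 was lower by 2-fold or more, against 10.2% of all genes. At 1.5-fold, 2 members were higher and 3 were lower, against 20.8% and 21.6% of all genes. With 10 genes, these shares are not far from those of the whole table, and the values of single members carry the description. The median log2 difference of the members was 0.27, and that of all genes was 0.0049. By direction alone 7 members were higher and 3 lower in the bort-treated library, beside 50.3% and 49.7% of all genes.

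To show the DNA at which these genes start, the promoters of MLL itself and of the members at both ends of the range are printed here. Each runs from 250 bases before to 50 bases after the most upstream start that RefSeq gives on GRCh38.p14. The expression table uses GRCh37, so the coordinates are those of RefSeq and the sequences serve as reference only. Capitals mark CG dinucleotides, the letters that the CXXC domain of MLL recognises when they are unmethylated.
KMT2A, chr11:118436242-118436541, plus strand: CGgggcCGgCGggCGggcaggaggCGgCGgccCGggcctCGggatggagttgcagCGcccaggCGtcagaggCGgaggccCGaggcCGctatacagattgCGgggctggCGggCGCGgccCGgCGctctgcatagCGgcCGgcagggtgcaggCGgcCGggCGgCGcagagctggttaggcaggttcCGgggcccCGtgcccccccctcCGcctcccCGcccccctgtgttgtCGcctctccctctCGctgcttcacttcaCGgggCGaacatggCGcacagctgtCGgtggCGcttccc
JMJD1C, chr10:63521841-63522140, minus strand: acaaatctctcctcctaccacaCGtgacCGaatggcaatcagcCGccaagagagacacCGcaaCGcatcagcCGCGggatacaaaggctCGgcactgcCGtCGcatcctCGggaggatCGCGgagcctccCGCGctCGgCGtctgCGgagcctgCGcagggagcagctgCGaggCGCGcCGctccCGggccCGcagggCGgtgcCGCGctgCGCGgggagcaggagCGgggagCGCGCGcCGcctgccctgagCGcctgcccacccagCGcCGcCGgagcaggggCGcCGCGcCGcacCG
AFF4, chr5:132963585-132963884, minus strand: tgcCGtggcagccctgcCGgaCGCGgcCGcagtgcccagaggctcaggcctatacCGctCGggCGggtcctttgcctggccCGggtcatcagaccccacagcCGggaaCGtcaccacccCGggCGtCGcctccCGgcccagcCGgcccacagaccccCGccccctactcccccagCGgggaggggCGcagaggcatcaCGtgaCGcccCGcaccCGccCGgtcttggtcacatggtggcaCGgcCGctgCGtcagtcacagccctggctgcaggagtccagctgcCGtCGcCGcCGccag
MLLT1, chr19:6279926-6280225, minus strand: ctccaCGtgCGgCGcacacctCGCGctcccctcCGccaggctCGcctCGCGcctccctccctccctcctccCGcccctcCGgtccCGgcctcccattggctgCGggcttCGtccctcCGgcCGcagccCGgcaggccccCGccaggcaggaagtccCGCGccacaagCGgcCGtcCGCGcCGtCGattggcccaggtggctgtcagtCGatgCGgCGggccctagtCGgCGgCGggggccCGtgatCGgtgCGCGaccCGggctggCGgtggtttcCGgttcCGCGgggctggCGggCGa
MEN1, chr11:64810637-64810936, minus strand: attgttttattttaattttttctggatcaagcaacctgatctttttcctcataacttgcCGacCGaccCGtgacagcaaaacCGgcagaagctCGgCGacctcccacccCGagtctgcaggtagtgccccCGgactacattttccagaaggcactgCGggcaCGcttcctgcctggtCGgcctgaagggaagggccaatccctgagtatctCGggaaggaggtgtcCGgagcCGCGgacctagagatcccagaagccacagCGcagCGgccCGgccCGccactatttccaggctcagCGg

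CG dinucleotides were frequent in most of these windows. The promoters of the 9 members with an entry held from 15 (MLLT10) to 44 (JMJD1C) of them, with a median of 33, while the median of all 27305 promoters was 13 and that of the 8544 promoters of genes in the table was 27. JMJD1C with 44 and MLLT1 with 43 CG dinucleotides lay next to each other in this count, although they stood at opposite ends of the log2 differences. Across the 9 members Spearman's rho between the CG count and the log2 difference was 0.033, a description only. No promoter of DOT1L was available here.

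Short motifs were searched on both strands of the same windows. A CCAAT box (CCAAT) was found in 5 of 9 members, MLLT3, MLLT1, MLLT10, AFF1 and MEN1, against 35.7% of all promoters and 37.6% of those of genes in the table, and the window of MLLT1 held 2. The letters of the antioxidant response element (TGACNNNGC) occurred in AFF1 and AFF4, against 13.6% of all promoters and 15.6% of those of genes in the table. The GATA letters (AGATAA) were in 0 of 9 members, in 10.5% of all promoters and in 4.56% of those of genes in the table. Those of the ATF4 site (TGATGNAAT), the heat shock element and the NF-kB site were also in 0 of 9, with shares of 1.01%, 0.494% and 0.370% of all promoters and 0.410%, 0.316% and 0.398% of those of genes in the table. No matches of different motifs overlapped in the member promoters, and a match or its absence is a description of these letters and not of binding.

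KMT2A (ENSG00000118058.20_3, on chromosome 11), the gene of MLL, stood at 5.58 FPKM without and at 6.12 FPKM with bort. Its log2 difference was 0.11, the smallest in size of all members, and 4842 of the 10987 genes lay above it and 6144 below it. In level KMT2A lay near the middle of the table, above 48.9% of genes in the untreated and 50.5% in the bort-treated library. In GENCODE 29, exons of KMT2A share 5599 bases with the gene model AP001267.5 on the same strand. That model is not in the table, and whether reads were divided between both was not tested.

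**Figure D1:**
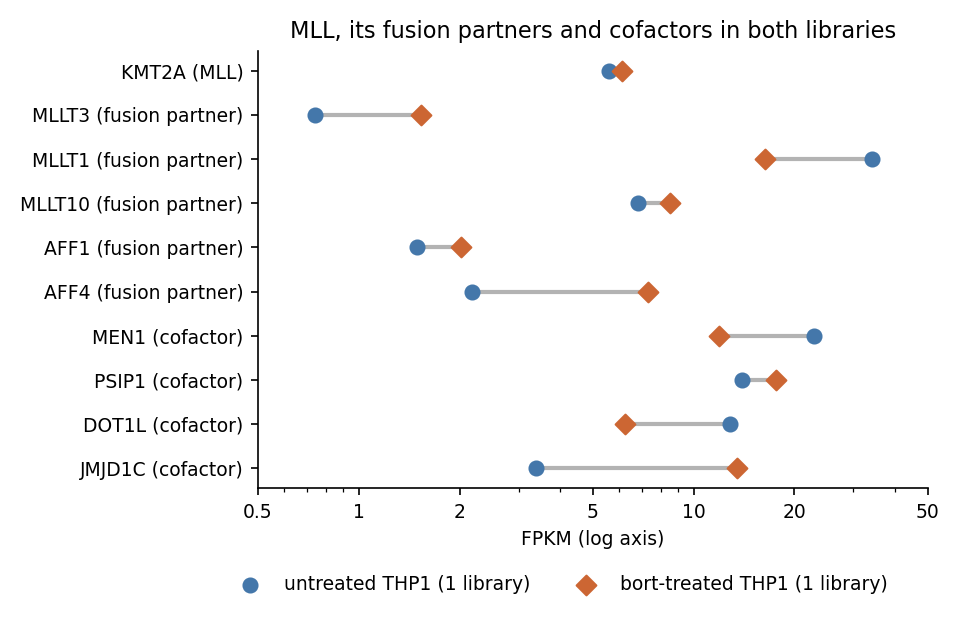
Level of each member in FPKM (log axis) in the untreated library (blue circles) and the bort-treated library (orange diamonds), 1 library each and no error bars. The longest lines are those of JMJD1C, from 3.39 to 13.5 FPKM, and AFF4, from 2.18 to 7.31 FPKM, and MLLT1, MEN1 and DOT1L are the members with the diamond to the left.

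Among the fusion partners, 4 of 5 were higher and 1 was lower in the bort-treated library. MLLT3, the AF9 partner of the fusion that THP1 is known to carry, had the lowest level of all members in both libraries. Whether the sequenced cells carried this fusion was not tested. MLLT3 was at 0.742 FPKM in the untreated and at 1.53 FPKM in the bort-treated library. Only 8.26% of listed genes were lower in the untreated library, which is near the floor of the table, since the higher value of every listed gene was 0.501 FPKM or more. The FPKM ratio of MLLT3 was 2.06, but the log2 difference on the FPKM + 1 scale was 0.54, short of 2-fold.

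MLLT1 encodes ENL, the paralogue of AF9, which like AF9 reads acetylated histones through a YEATS domain. It was the most abundant member in the untreated library, at 34.0 FPKM and above 88.5% of genes, and was at 16.4 FPKM in the bort-treated library. The log2 difference was -1.01, just past 2-fold, and 1100 genes had a more negative one. MLLT3 and MLLT1 thus differed in direction. The ratio of MLLT3 to MLLT1, which does not depend on how a library was scaled, was 0.0218 in the untreated and 0.0934 in the bort-treated library, a change of 4.28 times. These paralogues are the members with the lowest and the highest GC content, 38.2% and 63.4%. With the trend of the differences with GC content removed, the change of their ratio was 1.43 times on the FPKM + 1 scale. MLLT1 remained the more abundant of both paralogues in each library.

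AFF4, the scaffold of the super elongation complex, went from 2.18 FPKM in the untreated to 7.31 FPKM in the bort-treated library, with a log2 difference of 1.38. Of all genes, 356 had a larger difference. AFF1, the AF4 partner and paralogue of AFF4, was at 1.496 FPKM and 2.01 FPKM, with a log2 difference of 0.27. The ratio of AFF4 to AFF1 was 1.46 in the untreated and 3.63 in the bort-treated library. AFF4 was the higher of the pair in both, and with the GC trend removed the change was 1.88 times. Their other paralogues AFF2 and AFF3 were not among the listed genes.

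MLLT10, the AF10 partner that binds DOT1L, was at 6.84 FPKM in the untreated and at 8.47 FPKM in the bort-treated library, with a log2 difference of 0.27. DOT1L moved the other way, from 12.8 to 6.23 FPKM, with a log2 difference of -0.93. The ratio of DOT1L to MLLT10 was 1.88 in the untreated library and 0.736 in the bort-treated library. In the values as deposited the order of both genes was thus turned around. The log2 change of this ratio was -1.21 on the FPKM + 1 scale and -0.49 with the GC trend removed. This pair was chosen after the values were seen. Exons of DOT1L overlap the antisense gene AC004490.1 and the opposite-strand gene PLEKHJ1 over 764 and 529 of 11272 bases in GENCODE 29. The methods describe a stranded kit and the sample labels another, so a part of the DOT1L reads may belong to these genes.

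Of the cofactors, 2 were higher and 2 were lower in the bort-treated library. MEN1, the gene of menin, the bridge between MLL and LEDGF, was at 22.9 FPKM in the untreated and at 11.9 FPKM in the bort-treated library, with a log2 difference of -0.89. PSIP1, the gene of LEDGF, which binds methylated lysine 36 of histone H3, was at 13.9 FPKM and 17.6 FPKM, with a log2 difference of 0.32. PSIP1 thereby became the most abundant member in the bort-treated library, in which MEN1 was the fourth. The ratio of KMT2A to MEN1 was 0.243 in the untreated and 0.514 in the bort-treated library. MEN1 was above KMT2A in both, and with the GC trend removed the change of this ratio was 1.47 times, against 2.11 times as deposited. PSIP1 shares 140 of its 6768 exon bases with SNAPC3 on the opposite strand.

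JMJD1C, a jumonji protein that MLL-AF9 leukaemia cells are known to need, stood at the upper end of the members. Its FPKM in the bort-treated library was 3.97 times that in the untreated library, and the log2 difference was 1.72. Of all genes, 164 had a larger difference. JMJD1C was above 36.2% of genes in the untreated library and above 73.7% in the bort-treated library. In the order of the members it went from the seventh to the third place. Its exons overlap the antisense gene JMJD1C-AS1 over 387 of 11066 bases.

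In the untreated library the members ranked, from high to low, as MLLT1, MEN1, PSIP1, DOT1L, MLLT10, KMT2A, JMJD1C, AFF4, AFF1 and MLLT3. In the bort-treated library the order was PSIP1, MLLT1, JMJD1C, MEN1, MLLT10, AFF4, DOT1L, KMT2A, AFF1 and MLLT3. The highest member was 45.9 times the lowest in the untreated library and 11.5 times the lowest in the bort-treated library. Of the 4 most abundant members of the untreated library 3 were lower in the bort-treated library, and the other 6 members were higher. Without replicates it cannot be said which neighbours in these orders differ. DOT1L and KMT2A, at 6.23 FPKM and 6.12 FPKM in the bort-treated library, were closest.

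Fold changes in these libraries followed the GC content of the transcripts, and the members lay along the same trend. GC content, the share of G and C in the longest coding transcript, was known for all 10 members and for 10907 of the 10987 genes (99.3%). Across genes, which are not independent, Spearman's rho between GC content and log2 difference was -0.49, and over the 10 members, which share both libraries, it was -0.94. The members ran from 38.2% GC in MLLT3 to 63.4% in MLLT1, around a median of 49.1% for all genes. The 3 members that were lower in the bort-treated library, MEN1 (58.9%), DOT1L (62.7%) and MLLT1 (63.4%), were those with the highest GC content. JMJD1C (39.9%) and AFF4 (41.1%) were among those with the lowest, next to MLLT3 and PSIP1 (40.4%).

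When all genes are divided into deciles by GC content, the decile that holds DOT1L and MLLT1 had 31.0% of its genes lower by 2-fold or more and 2.29% higher. In the decile that holds JMJD1C, AFF4 and PSIP1, 13.4% of genes were higher by 2-fold or more and 1.19% were lower. MEN1 lay in a decile in which 21.7% were lower by 2-fold or more. The share of genes past 2-fold in the direction of MLLT1, DOT1L and MEN1 was therefore higher at their GC content than in the whole table, and the part of GC content in the member differences was not tested beyond the removal of the trend.

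**Figure D2:**
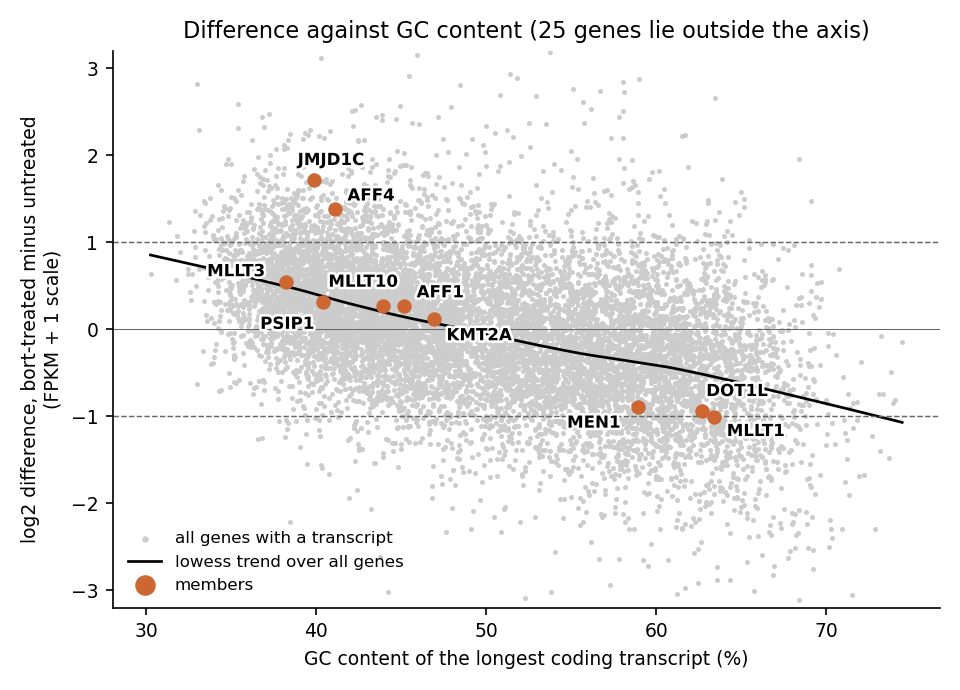
Log2 difference on the FPKM + 1 scale, bort-treated minus untreated, against the GC content of the transcript in percent for all genes (grey), with the members in orange, a lowess trend over all genes as a line and 2-fold as dashed lines. JMJD1C and AFF4 lie well above the trend, MEN1, DOT1L and MLLT1 below it, and MLLT3, PSIP1, MLLT10, AFF1 and KMT2A close to it.

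With the trend removed, the members fell into 3 sets. JMJD1C at 1.31 and AFF4 at 1.04 were still higher by 2-fold or more, with 347 and 680 genes above them. MLLT1 at -0.46, DOT1L at -0.42 and MEN1 at -0.51 were still lower, but none was near 2-fold any more, and MEN1 was now the lowest member. The log2 differences of AFF1 (0.13), MLLT10 (0.075), MLLT3 (0.047), KMT2A (0.041) and PSIP1 (-0.063) were close to 0. PSIP1 was the only member to change its direction. The median of the members was 0.044 after this step, and 0.27 before it. A single trend was fitted over all levels. Per 10 percentage points of GC, the slope of the log2 difference went from -0.53 to -0.12 in the third of genes with the highest mean FPKM, which holds MLLT1, MEN1 and PSIP1. In the third with the lowest mean FPKM, which holds MLLT3 and AFF1, it went from -0.28 to 0.13. The removal thus took out less than the slope in the first of these sets and more than it in the second.

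Several members have a paralogue outside the set, and in the 5 pairs compared the FPKM ratio of the member to its paralogue was higher in the bort-treated library, but in the KMT2A pair this turned around with the GC trend removed. These pairs were chosen after the values were seen. The ratio of KMT2A to KMT2B, the closest relative of MLL, was 0.348 in the untreated and 0.483 in the bort-treated library. For PSIP1 and HDGFL2, the other reader of the LEDGF type, the ratio went from 0.448 to 0.989. For MLLT10 and MLLT6 (AF17) it went from 0.650 to 1.21. JMJD1C was at 0.967 of the level of its relative KDM3A in the untreated and at 2.03 times that level in the bort-treated library, and relative to KDM3B it went from 0.305 to 0.885. KMT2B (63.5%), HDGFL2 (63.3%), MLLT6 (58.7%), KDM3B (50.7%) and KDM3A (44.8%) were all richer in GC than the member they were paired with. With the GC trend removed from both genes, on the FPKM + 1 scale, the log2 change of the ratio was -0.19 for KMT2A and KMT2B. It was 0.17 for PSIP1 and HDGFL2 and 0.22 for MLLT10 and MLLT6, against 1.09 and 0.79 on that scale before. The pairs of JMJD1C kept more of their change, with 0.71 for KDM3A and 0.81 for KDM3B, against 0.96 and 1.299 before. Of the 6 listed genes in the full list of paralogues, 2 were higher and 4 lower in the bort-treated library, with a median of -0.42. HDGF, at 186.8 FPKM and 90.8 FPKM, was the 1 gene of this list past 2-fold, and it was lower. Of all genes 10.2% were lower and 8.08% higher by 2-fold or more. With the GC trend removed the median of the list was 0.044, the opposite direction.

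**Figure D3:**
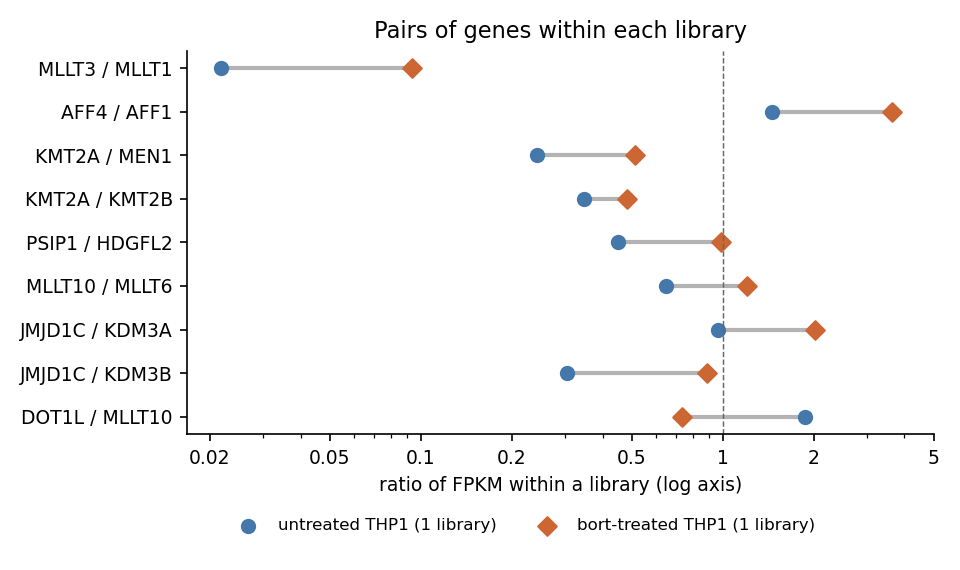
Ratio of FPKM between pairs of genes within each library (log axis), untreated as blue circles and bort-treated as orange diamonds, 1 library each, with a dashed line at a ratio of 1. All pairs but DOT1L to MLLT10 have a higher ratio in the bort-treated library, and MLLT3 to MLLT1 goes from 0.0218 to 0.0934, the widest shift of the deposited values. With the GC trend removed, which is not drawn, the widest shift is that of AFF4 to AFF1 (log2 change 0.91, against 0.51 for MLLT3 to MLLT1), and KMT2A to KMT2B goes the other way (-0.19).

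The other genes of the H3K4 methyltransferase complexes, the enzymes related to MLL and the core subunits that they share, were mostly present at moderate levels. All 18 of the list were found, 7 higher and 11 lower in the bort-treated library. Their median log2 difference was -0.22, and -0.15 with the GC trend removed. At 2-fold on the FPKM + 1 scale, 0 were higher and 1 was lower, against 8.08% and 10.2% of all genes. That gene was PAGR1, a subunit of the KMT2C and KMT2D complexes, at 41.9 FPKM in the untreated and 11.5 FPKM in the bort-treated library. SETD1A, another methyltransferase of H3K4, went from 21.3 to 11.6 FPKM. KDM6A, a demethylase within the KMT2C and KMT2D complexes, was the gene with the largest difference upwards, at 2.56 FPKM and 5.45 FPKM. Its FPKM ratio was 2.13, but its log2 difference on the FPKM + 1 scale was 0.86, short of 2-fold. KMT2C, at 3.52 FPKM and 5.01 FPKM, came next. KMT2A, with a log2 difference of 0.11, and MEN1, with -0.89, lay on both sides of the median of this list.

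The genes that work with AFF1, AFF4, MLLT1 and MLLT3 in elongation were listed for 17 of 18. In the bort-treated library 10 were higher and 7 lower. The median log2 difference was 0.061, and 0.15 with the GC trend removed. At 2-fold on the FPKM + 1 scale, 1 was higher and 0 were lower, against 8.08% and 10.2% of all genes. EAF2, a partner of the ELL elongation factors, was at 1.22 FPKM in the untreated and 4.14 FPKM in the bort-treated library. CCNT2, a cyclin of the kinase P-TEFb, was at 0.924 FPKM and 2.59 FPKM. Its FPKM ratio was 2.80, but its log2 difference on the FPKM + 1 scale was 0.90. Among subunits of the PAF1 complex, to which MLL binds, PAF1, CTR9 and CDC73 were lower, RTF1 was higher and LEO1 was close to equal. PAF1 was at 41.5 FPKM and 25.6 FPKM, and CTR9 was at 21.5 FPKM and 13.8 FPKM. CDC73 was at 8.63 FPKM and 6.24 FPKM, with a log2 difference of -0.41 that was -1.02 with the GC trend removed. RTF1 was at 12.0 FPKM and 19.1 FPKM, and LEO1 at 17.4 FPKM and 17.3 FPKM. CDC73, RTF1 and LEO1 were named after their values were seen. On the FPKM + 1 scale AFF4, with a log2 difference of 1.38, lay above the highest value of this list, 1.21 for EAF2. With the GC trend removed AFF4 was at 1.04, and EAF2 at 0.77 was no longer past 2-fold. By FPKM ratio their order was the other way, at 3.35 for AFF4 and 3.38 for EAF2.

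Of 29 genes described as targets of MLL fusions, 14 were listed, and of the 11 HOXA genes looked up 3 were. A total of 7 were higher and 7 lower in the bort-treated library. The median log2 difference was 0.19, and 0.046 with the GC trend removed. At 2-fold on the FPKM + 1 scale, 1 was higher and 2 were lower, against 8.08% and 10.2% of all genes. LMO2, a transcription factor of blood stem and erythroid cells, was at 42.5 FPKM in the untreated and at 8.18 FPKM in the bort-treated library. MYB, a factor that MLL-AF9 leukaemia depends on, was at 24.6 FPKM and 8.26 FPKM. RUNX1 went the other way, from 2.47 to 7.05 FPKM, and SENP6 from 5.12 to 8.75 FPKM. LMO2 and MYB are also active in erythroid cells, whose markers KLF1 (147.1 and 17.4 FPKM) and HBZ (584.0 and 158.5 FPKM) were lower in the bort-treated library as well. Other erythroid markers were not, as TAL1 was at 11.1 FPKM and 22.04 FPKM, HBE1 at 424.7 FPKM and 710.3 FPKM, and HBG1, the most abundant, at 1487 FPKM and 1536 FPKM. Over all 18 listed erythroid markers 6 were higher and 12 lower, with a median of -0.86 that was -0.36 with the GC trend removed, and their part in the values of LMO2 and MYB was not tested.

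**Figure D4:**
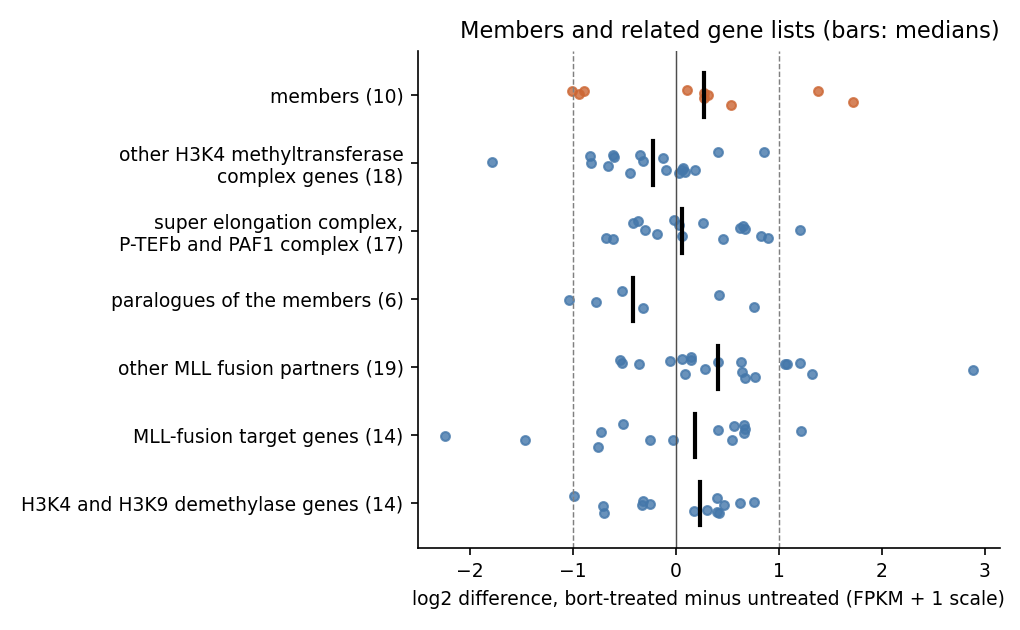
Log2 difference on the FPKM + 1 scale, bort-treated minus untreated, of each listed gene (points) of the members and of related gene lists, with the number of listed genes in brackets, medians as black bars and 2-fold as dashed lines. The members spread to both sides of 0, from -1.01 to 1.72, with a median of 0.27.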

How the data were processed

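RNA sequencing of 1 bort-treated and 1 untreated THP1 library was analysed. After trimming, HISAT2 2.0.4 was used for mapping and StringTie 1.2.3 for quantification by the authors. The deposited values are FPKM per gene, on GRCh37 per the labels. No read counts were used, and the table appears to be filtered at 0.5 FPKM in either library. The members and lists were chosen with earlier results of these data known, and the motifs and alternatives likewise.

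Differences are those of log2(FPKM + 1), bort-treated minus untreated, and 2-fold follows the study. With 1 library per group no test was run. GC content came from GENCODE 29 transcripts, matched by gene identifier, and its trend was fitted by lowess with a span of 0.3. Gene symbols on a pair of identifiers occur in 7 cases, none of them a member, and the first was used. Promoters are RefSeq's, 1 per symbol. In each related list, the 2 genes with the largest difference each way among those reaching 1 FPKM, and the most abundant untreated one, were eligible to be named. The calculations were tested on simulated data. Python 3.11.15, numpy 2.4.6, pandas 2.3.3, statsmodels 0.14.6 and matplotlib 3.10.9 were used. Amino acid sequences were not used here.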

Additional observations from a re-analysis of the deposited data

How the results depend on the processing

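With 1 library per group no paired analysis was possible, and none could be left out. JMJD1C and AFF4 were higher by 2-fold or more under all 8 other settings, with log2 differences from 1.31 to 1.99 and from 1.04 to 1.74. At a threshold of 4-fold 0 members were higher and 0 lower. MLLT1 was lower under all 8 but not past 2-fold with upper quartile scaling (-0.91), with totals without the 20 most abundant genes (-0.91) and with the GC trend removed (-0.46), so the number of members lower by 2-fold was 0 under these 3. It was 2 with a pseudocount of 0.1 FPKM and with none, where DOT1L joined it, and 3 at 1.5-fold. MLLT3 passed 2-fold with no pseudocount (1.04) and had no value in the filter of 1 FPKM in both libraries. PSIP1 changed direction with the GC trend removed (-0.063), as did the median of the paralogues (0.044); the other members kept their direction under every setting run.

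Over all genes, 888 were higher and 1125 lower by 2-fold. The numbers were 1576 and 1658 with a pseudocount of 0.1 FPKM, 1654 and 1708 with none, 2282 and 2378 at 1.5-fold, 92 and 135 at 4-fold, and 746 and 674 with the GC trend removed. Among genes past 2-fold the share of higher ones was 44.1%, against 53.6% with upper quartile scaling and 53.7% with totals without the most abundant genes, scalings that moved the median of all genes to 0.093. The ratios of MLLT3 to MLLT1, AFF4 to AFF1 and KMT2A to MEN1 kept their direction with 1 FPKM added. With the GC trend removed as well, an alternative chosen after seeing the data, the log2 change of MLLT3 to MLLT1 was 0.51, against 2.10, and that of KMT2A to KMT2B, 0.47 as deposited, was -0.19. The depth is unknown, so the counting error of low members such as MLLT3 and AFF1 cannot be given. The cause of these shifts was not tested.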

Other observations

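Other fusion partners of MLL, outside the members, were more often higher than lower in the bort-treated library. Of 20 genes 19 were listed, 15 higher and 4 lower, beside 50.3% and 49.7% of all genes. Their median log2 difference was 0.41. At 2-fold 5 were higher and 0 lower, against 8.08% and 10.2% of all genes. MLLT11 (AF1Q) had the largest difference, from 11.5 FPKM in the untreated to 92.0 FPKM in the bort-treated library, a log2 difference of 2.89 that was 3.02 with the GC trend removed. FOXO3, a stress-responsive transcription factor, was at 3.79 FPKM and 11.0 FPKM. FOXO4, its relative, was at 7.48 FPKM and 4.83 FPKM, the lowest log2 difference of the list at -0.54, and MLLT6 was at 10.5 FPKM and 7.03 FPKM. ACTN4, an actin-binding protein and the most abundant of the list, was at 63.1 FPKM and 69.9 FPKM. With the GC trend removed the median of the list was 0.47. ELL and MLLT6 also stand in other lists described here.

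All genes of a chosen list of H3K4 and H3K9 demethylases, which includes KDM3A and KDM3B, the relatives of JMJD1C, were listed. Of these 14 genes 8 were higher and 6 lower in the bort-treated library. The median log2 difference was 0.24, and 0.15 with the GC trend removed. On the FPKM + 1 scale 0 passed 2-fold in either direction, against 8.08% higher and 10.2% lower of all genes. KDM3A was at 3.51 FPKM in the untreated and 6.64 FPKM in the bort-treated library, and KDM7A was at 1.80 FPKM and 3.33 FPKM. KDM2B went from 5.95 to 2.51 FPKM and KDM5C from 29.5 to 17.7 FPKM. The FPKM ratio of KDM2B was 0.421, but its log2 difference on the FPKM + 1 scale was -0.99, just short of 2-fold. KDM1A (LSD1), the most abundant, was at 42.2 FPKM and 25.7 FPKM. The log2 difference of 1.72 of JMJD1C lay above that of each of these genes, the highest of which was 0.76 for KDM3A.

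KMT2E (MLL5) is a distant relative of MLL in none of the lists and was picked after its value was seen. It was at 4.71 FPKM in the untreated and 10.7 FPKM in the bort-treated library. The log2 difference was 1.03, and 0.80 with the GC trend removed, short of 2-fold.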
